A study of Mus musculus with 16 samples.

Results

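The data compared here are the expression profiles of 8 B16-BL6 mouse melanomas: 4 from mice given 5-aminolevulinic acid (ALA) alone and 4 from untreated mice, of 16 arrays in the series. The samples were chosen by their titles, not by any measured value. All of the tumours grew in male C57BL/6J mice of 8 weeks, and B16-BL6 is a transplantable melanoma line that arose in this strain. The ALA group received 50 mg/kg of ALA locally and no radiation; the untreated group received neither agent. The remaining 8 arrays, 4 from tumours given X-ray and 4 from tumours given ALA before fractionated X-ray, enter the estimate of spread and 1 later comparison. The labels do not give the number of ALA doses, the time between the last dose and sampling, or any exposure to light. They describe each array as a tumour preparation from a mouse without saying that the mice differ, so p-values measure only the spread between these samples, which may be technical.

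ALA is the first committed intermediate of heme synthesis. Normally a cell makes it in the mitochondrion with ALA synthase, which is Alas1 in most tissues and Alas2 in developing red cells, and heme holds Alas1 back. ALA supplied from outside passes this controlled step, and tumour cells can then accumulate protoporphyrin IX, the last intermediate before iron is inserted, which is a photosensitiser. Heme itself is broken down by heme oxygenase, encoded by Hmox1, a gene that heme and oxidative stress induce.

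RNA was labelled with Cy3 and read on 1-colour Agilent whole-genome mouse arrays. Each value below is a log2 signal relative to the 75th percentile of its own array, so that 0 marks that percentile and 1 unit is a 2-fold difference in signal. The 75th percentile itself was a signal of 213 to 408 on the untreated arrays and 217 to 331 on the ALA arrays, and 44.3% to 53.6% of the spots on these 8 arrays were well above background. As for the labelled tissue, all 19 genes of the pigmentation list were measured, and their mean stood between 3.77 and 4.03 on the 8 arrays. The 4 slides each carried 1 array of every group, at a position that followed the group, so that position and group cannot be told apart. The number of arrays and, for dim genes, signal near background limit the precision.

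No gene passed the test between ALA and untreated tumours. Of 15399 genes tested with limma and Benjamini-Hochberg adjustment, 0 (0.00%) passed at an adjusted p of 0.05, and the lowest value any gene reached was 0.391. An unadjusted p under 0.05 was found for 961 genes, or 4.07% of genes higher and 2.17% lower in ALA. For 11949 genes (77.6%) the 95% interval of the difference lay within a 2-fold change in either direction. The difference was estimated at 2-fold or more for 631 genes. In 491 genes (3.19%) all 4 ALA values lay above all 4 untreated values, and in 386 genes (2.51%) all lay below; with median scaling of the arrays these counts were 125 and 476, and with normexp background correction 525 and 682. The median difference over all genes was 0.00, and it was -0.12 with median scaling. With array weights 40 genes passed, and with a fit on these 8 arrays alone 2. A difference called higher or lower below is therefore a measured difference of group means and not a call of the test, unless the sentence says otherwise.

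The enzymes of the heme pathway themselves differed little, with the exception of both forms of the first enzyme, which lay in opposite directions. All 9 enzymes were measured; 3 were higher and 6 lower in ALA, 0 passed the test, and the median difference was -0.09. Alas1, the ALA synthase of most tissues, read 3.15, 3.00, 2.90 and 3.15 on the untreated arrays and 2.20, 3.07, 0.89 and 1.44 on the ALA arrays. Array ALA 2 stood among the untreated arrays and the other 3 ALA arrays below all of them. The difference was -1.15 (SE 0.35, 95% interval -1.90 to -0.39), a 2.22-fold lower mean, with an adjusted p of 0.75 in limma. Another probe for Alas1 gave a difference of -1.01. The probe used lies at chr9:106136467-106136526 in the mm9 annotation of the array. With ALA 2 left out, the difference was -1.54 at an adjusted p of 0.13 in limma. Over 21 other settings, that one included, it ranged from -1.54 to -0.81.

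The later enzymes described here were measured well above background on all 8 arrays, and none of them differed by as much as 0.3. Alad, which joins 2 molecules of ALA into porphobilinogen, differed by -0.26 (SE 0.22). Uros, which closes the ring, differed by 0.14 (SE 0.21). Urod and Cpox, which trim the side chains, differed by -0.07 (SE 0.13) and -0.09 (SE 0.14). Ppox, which oxidises the ring to protoporphyrin IX, differed by -0.19 (SE 0.23). Fech, ferrochelatase, which inserts the iron, read 1.67, 1.61, 1.72 and 1.44 on the untreated arrays and 1.62, 1.98, 1.75 and 1.58 on the ALA arrays. Its 95% interval, -0.37 to 0.61, leaves room for less than a 2-fold difference either way, as do those of Alad, Uros, Urod, Cpox and Ppox.

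Hmox1 and Tfrc, genes of heme breakdown and iron uptake, split the ALA arrays as Alas1 did. Hmox1, heme oxygenase 1, read 4.50, 3.90, 4.04 and 3.74 on the untreated arrays and 5.51, 4.08, 5.40 and 5.83 on the ALA arrays. Array ALA 2 again lay within the untreated range and the other 3 above all untreated arrays. The mean was 2.24-fold higher in ALA (log2 difference 1.16, SE 0.39, 95% interval 0.32 to 2.01, limma adjusted p 0.75). Without ALA 2 the difference was 1.54, at a limma adjusted p of 0.22. Over 21 other settings, that one included, it ranged from 0.95 to 1.54. Blvrb, biliverdin reductase B, read 0.44, 1.21, 1.56 and 1.26 on the untreated arrays and 1.50, 1.79, 1.86 and 1.83 on the ALA arrays. For Blvrb 3 ALA arrays lay above all untreated arrays and ALA 1 just under untreated 3, with a difference of 0.63 (SE 0.22, limma adjusted p 0.75). Hpx, hemopexin, is the plasma carrier of heme that the liver makes, and it belongs to the liver genes described at the end. It was well above background on 2 untreated and 0 ALA arrays and was at least 1.55-fold lower in ALA (measured difference -1.95, SE 0.79). Such a bound holds each array of the dim group at the lowest signal that counted as well above background there. It concerns the measured group means only, and allows neither for the spread between arrays nor for another background correction. Tfrc, the transferrin receptor that brings iron into the cell, read 3.43, 3.35, 2.86 and 3.24 on the untreated arrays and 2.55, 3.41, 1.37 and 1.99 on the ALA arrays. For Tfrc, too, array ALA 2 read as the untreated arrays did and the other 3 read lower; the difference was -0.89 (SE 0.41, limma adjusted p 0.80).

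The other genes of both groups differed less or were dim. Of 18 measured genes for ALA uptake, porphyrin transport and heme breakdown, 8 were higher and 10 lower, with a median of -0.06. Slc15a2, a peptide transporter that also carries ALA, differed by 0.37 (SE 0.19), and its relative Slc15a1 was below the filter on dim probes. Abcg2, which exports protoporphyrin IX, differed by -0.32 (SE 0.32), a difference that was 0.09 without untreated arrays 3 and 4. Slc46a1, a folate and heme carrier, differed by -0.40, Flvcr1, a heme exporter, by -0.25, and Slc36a1, a lysosomal and plasma membrane amino acid carrier, by -0.33. Among 22 measured genes of iron uptake, storage and sensing, 11 were higher and 11 lower, with a median of -0.01 whose sign changed in 12 of 21 other settings. Fth1, the ferritin heavy chain, differed by 0.16 (SE 0.16), Slc11a2, an iron importer, by -0.31 (SE 0.18), and Cp, the ferroxidase ceruloplasmin, by 0.58 (SE 0.30).

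**Figure D1:**
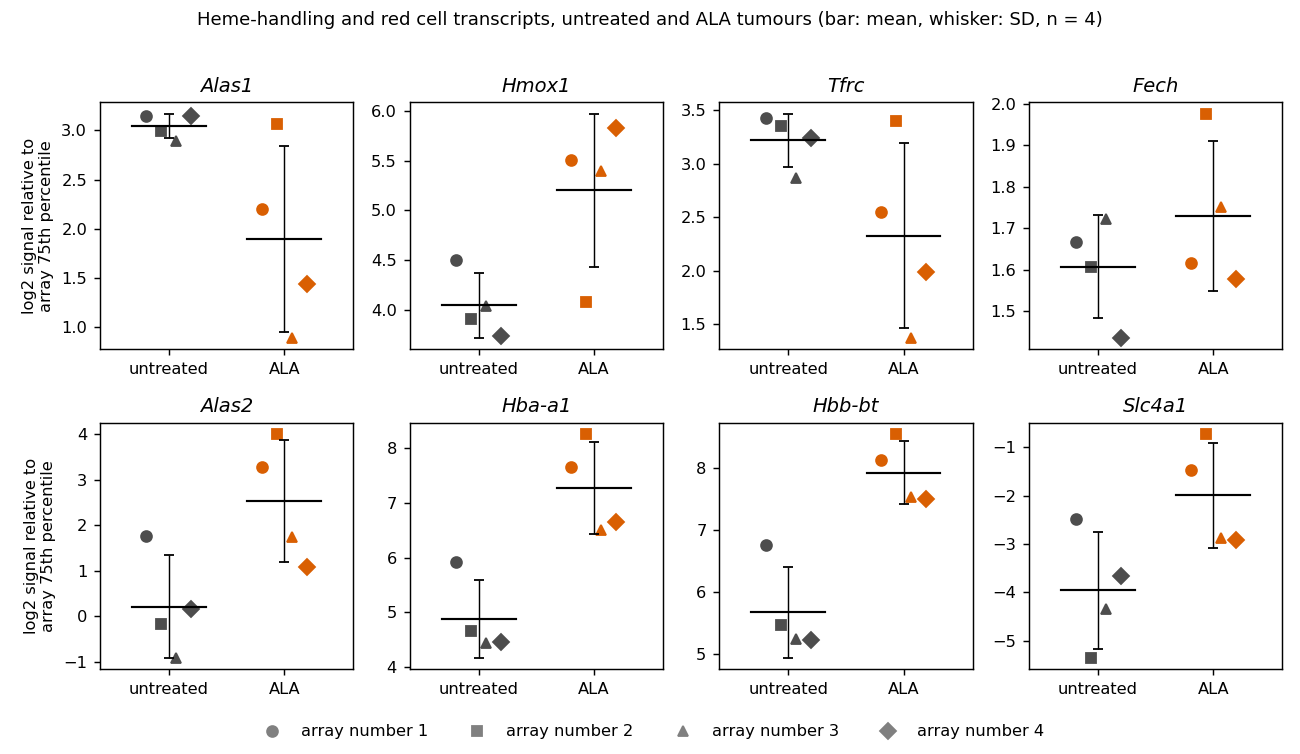
Log2 signal relative to the array's 75th percentile (vertical axes, which differ in range and do not start at 0) for 8 genes on the 4 untreated and 4 ALA arrays; each point is 1 array, shaped by its array number, with the mean as a bar and the SD as a whisker. Array ALA 2 (square) sits with the untreated arrays for Alas1, Hmox1 and Tfrc and is the highest of all 8 for Alas2, Hba-a1, Hbb-bt and Slc4a1.

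Globin transcripts were higher on all 4 ALA arrays than on any untreated array, while most other red cell genes were level. These genes are shown first by their promoters, since the globin genes and Alas2 are switched on together during red cell maturation. The sequences below are the 250 bases before the RefSeq start site (GRCm38.p6), for Hba-a1 at chr11:32283422-32283671 on the plus strand, Hbb-bt at chr7:103813924-103814173 on the minus strand and Alas2 at chrX:150547167-150547416 on the plus strand. Capitals mark AGATAA, a form of the letters read by GATA factors, and CCACCC, the letters read by factors of the Klf family, each searched on both strands. Other forms of the GATA letters, such as TGATAA, were not searched or marked.
Hba-a1: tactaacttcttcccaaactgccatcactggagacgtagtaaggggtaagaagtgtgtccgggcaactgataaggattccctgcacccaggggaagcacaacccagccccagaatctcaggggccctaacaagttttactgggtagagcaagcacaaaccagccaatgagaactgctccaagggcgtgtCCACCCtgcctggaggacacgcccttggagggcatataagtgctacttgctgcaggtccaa
Hbb-bt: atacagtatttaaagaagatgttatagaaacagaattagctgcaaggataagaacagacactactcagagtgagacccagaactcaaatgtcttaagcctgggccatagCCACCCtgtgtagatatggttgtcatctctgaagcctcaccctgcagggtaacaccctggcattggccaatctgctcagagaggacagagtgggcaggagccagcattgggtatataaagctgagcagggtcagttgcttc
Alas2: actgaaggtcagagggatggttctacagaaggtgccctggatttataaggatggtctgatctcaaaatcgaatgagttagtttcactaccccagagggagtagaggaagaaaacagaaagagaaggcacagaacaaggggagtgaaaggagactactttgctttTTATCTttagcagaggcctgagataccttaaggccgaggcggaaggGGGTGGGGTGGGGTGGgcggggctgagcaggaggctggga
Alas2 held AGATAA once, in reverse orientation from 86 bases before the start, and CCACCC in 3 reverse copies, each sharing its end base with the next. Hba-a1 held CCACCC from 61 and Hbb-bt from 141 bases before the start, and no exact AGATAA. The lack of AGATAA does not mean that a window lacks the other GATA forms. No copy of 1 motif overlapped a copy of the other. Of 32851 promoter windows of the same length, 10.0% held AGATAA and 28.1% CCACCC; of the 8 measured erythroid genes with a window, 4 held AGATAA and 5 CCACCC. A match is a description of letters in this window.

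Hba-a1, an adult alpha globin, read 5.92, 4.67, 4.44 and 4.46 on the untreated arrays and 7.65, 8.26, 6.51 and 6.64 on the ALA arrays. The lowest ALA array lay above the highest untreated array, untreated 1, which itself stood well above the other 3. The mean was 5.25-fold higher (log2 difference 2.39, SE 0.80, 95% interval 0.68 to 4.11, limma adjusted p 0.75). The probe for the near-identical copy Hba-a2 gave 2.27, and the transcripts of the 2 copies cannot be told apart. Hbb-bt, an adult beta globin, read 6.76, 5.47, 5.24 and 5.22 on the untreated arrays and 8.12, 8.55, 7.54 and 7.49 on the ALA arrays. The groups did not overlap here either (difference 2.25, SE 0.75, limma adjusted p 0.75), and its 4 probes gave 2.25 to 2.64. Hba-a1 varied widely among the X-ray arrays, which had no ALA, at 3.32, 6.73, 5.65 and 8.42.

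Alas2, the ALA synthase of red cells, read 1.77, -0.16, -0.91 and 0.17 on the untreated arrays and 3.28, 4.02, 1.75 and 1.10 on the ALA arrays. Its groups overlapped, through untreated 1 and arrays ALA 3 and 4 (difference 2.32, SE 1.03, limma adjusted p 0.80). Slc4a1, the anion exchanger of the red cell membrane, was well above background on 1 of 4 untreated and 4 of 4 ALA arrays and differed by 1.96 (SE 1.09, limma adjusted p 0.81), or 0.50 with normexp. The rest of the list did not follow: Epor, the erythropoietin receptor, differed by -0.08 (SE 0.11), and the median of the 12 measured genes was 0.15, with 9 higher and 3 lower. Of the 23 genes on the list 11 were not tested, among them Gata1 and Ahsp, which were below the filter. In bulk tissue, more cells of a type and more RNA per cell cannot be told apart.

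Most measured platelet transcripts were also higher, from low levels. Of 9 measured platelet and megakaryocyte genes 8 were higher, 0 passed, and the median was 0.65, or 0.48 with genes dim on every array of a group held at their bound, and 0.29 with normexp background correction. Gp1bb, a subunit of the platelet receptor for von Willebrand factor, read -4.88, -5.08, -4.21 and -3.89 on the untreated arrays and -3.14, -3.42, -2.92 and -3.16 on the ALA arrays. All ALA arrays exceeded all untreated arrays (difference 1.35, SE 0.28, limma adjusted p 0.48), though the gene was well above background on 1 untreated and 3 ALA arrays only, and the difference was 0.29 with normexp. Ppbp, a platelet chemokine precursor, differed by 1.97 (SE 0.87), or 0.74 with normexp, and Nrgn, which platelets carry, was well above background on 0 untreated and 2 ALA arrays and at least 1.09-fold higher. Pf4, platelet factor 4, was the exception and read 2.06, 2.46, 3.02 and 2.67 on the untreated arrays and 2.40, 2.25, 0.22 and 0.98 on the ALA arrays. Arrays ALA 3 and ALA 4 were lower than all untreated arrays, and the difference was -1.09 (SE 0.51, limma adjusted p 0.80).

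Neutrophil transcripts were measurable for 4 of 14 genes on the list, with 3 higher, 1 lower and a median of 1.39. Under normexp 2 were higher and 2 lower, with a median of 0.25. When the filter on dim probes was dropped, 8 of 13 genes were higher, with a median of 0.09. S100a9, a subunit of the neutrophil protein calprotectin, read -3.32, -3.59, -0.21 and -2.83 on the untreated arrays and 1.78, 0.29, 0.01 and 0.10 on the ALA arrays. Every ALA array lay above every untreated array, with untreated 3 close to them (difference 3.03, SE 1.27, limma adjusted p 0.80), or 1.75 with normexp. Its partner S100a8 differed by 2.19 (SE 0.95), well above background on 1 untreated and 4 ALA arrays, and by 0.51 with normexp. The other 2 measured genes were at the edge of detection, and Ly6g, Csf3r and Cxcr2 were not tested.

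Targets of hypoxia and glycolytic enzymes were higher as a list. All 29 genes were measured and all 29 had a higher mean in ALA, where 49.6% of all genes did; the median was 0.34, 0 passed, 6 had an unadjusted p under 0.05 (against 4.07% of all genes), and 1 was higher without overlap (against 3.19%). With median scaling 26 were higher, with a median of 0.22. Ero1a, an oxidase of the endoplasmic reticulum, read 2.82, 2.85, 3.09 and 1.83 on the untreated arrays and 4.51, 2.62, 4.50 and 4.02 on the ALA arrays. Arrays ALA 1, 3 and 4 exceeded every untreated array and ALA 2 did not (difference 1.27, SE 0.41, limma adjusted p 0.75). Vegfa, the angiogenic growth factor, read 3.13, 2.91, 2.88 and 1.77 on the untreated arrays and 4.31, 2.13, 4.22 and 3.74 on the ALA arrays, a difference of 0.93 (SE 0.44, limma adjusted p 0.80). Ndrg1 differed by 0.80, Higd1a by 0.47 and P4ha1, a collagen prolyl hydroxylase, by 0.47. On the slide that carried ALA 2 the list's median difference was -0.40, against 0.52, 0.48 and 0.95 on slides 1, 3 and 4. Without ALA 2 the median was 0.60. It was 0.29 without ALA 1, 0.28 without untreated 4, and 0.23 without untreated 3 and 4, where 25 of 29 genes were higher.

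Of 27 measured antioxidant genes 21 had a higher mean in ALA, with a median of 0.15 and a range of -0.28 to 0.63, and 0 passed. With median scaling 16 were higher and the median was 0.03. The glutathione synthesis subunits Gclm and Gclc differed by 0.63 (SE 0.25) and 0.44 (SE 0.17), and the metallothioneins Mt2 and Mt1 by 0.39 (SE 0.16) and 0.36 (SE 0.15). Gclc read 0.49, 0.62, 0.62 and 0.46 on the untreated arrays and 1.00, 0.59, 1.18 and 1.18 on the ALA arrays. Here, too, ALA 2 read as the untreated arrays did. Nqo1, a quinone reductase, differed by 0.34 (SE 0.18), or -0.0013 with normexp background correction. Sod2, the mitochondrial superoxide dismutase, differed by -0.22 (SE 0.14).

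Other stress responses were close to level. The heat shock list had a median of 0.04 over 15 genes, 11 of them higher, led by Hspa1b at 1.48 (SE 0.76) and Hspa8 at 0.40 (SE 0.21). The unfolded protein and amino acid stress list had a median of 0.02 over 21 genes, 12 higher. Atf5, a transcription factor of that response, read 3.65, 2.99, 3.19 and 3.42 on the untreated arrays and 4.00, 3.41, 4.08 and 4.22 on the ALA arrays, with array ALA 2 inside the untreated range (difference 0.62, SE 0.19, limma adjusted p 0.75). Trib3, a target of Atf4, differed by 0.72 (SE 0.40). Among 21 immediate early genes, 14 were higher with a median of 0.17, or 0.06 at the bounds of dim genes; Ccn1 and Ccn2, matricellular targets of Yap, differed by 1.29 (SE 0.54) and 0.94 (SE 0.45), and Egr1 by -0.83 (SE 0.38). The 14 clock genes had 7 higher and 7 lower.

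Pigmentation and respiratory chain genes had medians close to 0. The 19 pigmentation genes had 8 higher and 11 lower, a median of -0.05 and differences from -0.25 to 0.66. Tyr, tyrosinase, differed by -0.20 (95% interval -0.63 to 0.23), Mitf, the lineage transcription factor, by -0.25 (95% interval -0.75 to 0.25), and Kit, a receptor tyrosine kinase of melanocytes, by 0.66 (SE 0.25, limma adjusted p 0.76). The 28 respiratory chain genes lay between -0.22 and 0.30, with 9 higher, 19 lower and a median of -0.05.

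Most replication and mitosis genes had slightly lower means in ALA. Of 32 replication genes 28 were lower, with a median of -0.15 and a lowest value of -0.41; of 29 mitosis genes 23 were lower, with a median of -0.10, and 18 of 29 with normexp. None passed. Pcna, the replication clamp, read 6.15, 6.29, 6.12 and 6.16 on the untreated arrays and 5.93, 6.04, 6.08 and 5.92 on the ALA arrays. All 4 ALA values were lower than all 4 untreated values, by -0.19 on average (SE 0.15, limma adjusted p 0.85). Tyms, thymidylate synthase, differed by -0.41 (SE 0.25), and Aurkb, a mitotic kinase, by -0.29 (SE 0.18). Mki67, the proliferation marker, differed by -0.04 (95% interval -0.74 to 0.67), and its sign changed with normexp, quantile normalisation, the authors' table and averaging over probes.

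Targets of p53 leaned the same way, with 20 of 29 lower and a median of -0.17, or -0.09 at the bounds of dim genes. Cdkn1a, the cell cycle inhibitor p21, read 1.85, 2.40, 1.92 and 1.94 on the untreated arrays and 1.34, 1.54, 1.70 and 1.41 on the ALA arrays. The groups did not overlap (difference -0.53, SE 0.21, limma adjusted p 0.78). Ddit4l, an mTOR regulator, differed by -0.83 (SE 0.28), Ccng1, cyclin G1, by -0.65 (SE 0.30), and Xpc, a nucleotide excision repair protein, by 0.39 (SE 0.16).

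Macrophage genes were lower in ALA. Of 19 measured markers 18 were lower, 10 without overlap between the groups, against 2.51% of all genes, and the median was -1.66, or -0.79 with normexp background correction; 0 passed the test. Within slides 1 to 4 the median difference was -0.51, -0.91, -3.13 and -2.61. Over the whole list array ALA 2 was level with untreated 1, so that the list means of the groups touched. C1q is the recognition molecule of the classical complement pathway and is made in tissues mostly by macrophages, from 3 adjacent genes. The upstream windows of the C1qb and C1qc genes (GRCm38.p6, 250 bases before the RefSeq start, minus strand, chr4:136886201-136886450 and chr4:136892915-136893164) are shown because the genes differed in the same direction; capitals mark AGGAAGT, the core letters read by factors of the Ets family such as PU.1, searched on both strands.
C1qb: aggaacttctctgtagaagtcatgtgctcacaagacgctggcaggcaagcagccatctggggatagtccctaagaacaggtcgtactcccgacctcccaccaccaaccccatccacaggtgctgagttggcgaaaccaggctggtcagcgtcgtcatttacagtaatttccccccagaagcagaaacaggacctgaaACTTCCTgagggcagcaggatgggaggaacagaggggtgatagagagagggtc
C1qc: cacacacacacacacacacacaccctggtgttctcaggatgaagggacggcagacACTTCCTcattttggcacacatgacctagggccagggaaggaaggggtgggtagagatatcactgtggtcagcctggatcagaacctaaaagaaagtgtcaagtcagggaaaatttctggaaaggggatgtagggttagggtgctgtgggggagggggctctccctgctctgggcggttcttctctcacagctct
Each window held AGGAAGT once, in reverse orientation, from 53 bases before the start in C1qb and 195 in C1qc. It was in 7.7% of all 32851 windows, in 5 of the 13 measured macrophage genes that had one, and in 2 of the 13 complement genes that had one.

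C1qa read 1.09, 1.52, 1.51 and 2.49 on the untreated arrays and -1.12, 0.00, -2.69 and -1.46 on the ALA arrays. Every ALA array was below every untreated array, with ALA 2 the highest and ALA 3 the lowest of the ALA arrays. The difference was -2.97 (SE 0.74, 95% interval -4.56 to -1.38), a 7.86-fold lower mean, at a limma adjusted p of 0.73. C1qc and C1qb differed by -2.74 (SE 0.71) and -1.72 (SE 0.53), also without overlap. Ms4a7, a membrane protein of tissue macrophages, read 0.97, 1.39, 0.90 and 1.97 on the untreated arrays and -1.44, -0.44, -2.93 and -1.72 on the ALA arrays. Its difference was -2.94 (SE 0.64, limma adjusted p 0.48), and a further probe gave -2.99.

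Adgre1, which encodes the macrophage antigen F4/80, read 0.69, 1.74, 1.80 and 2.14 on the untreated arrays and -0.80, 0.27, -2.05 and -1.60 on the ALA arrays. The difference of -2.64 (SE 0.72, limma adjusted p 0.75) again left no overlap. Lyz2, the lysozyme of myeloid cells, read 5.58, 5.85, 6.03 and 6.33 on the untreated arrays and 4.77, 4.94, 3.29 and 3.91 on the ALA arrays, a difference of -1.72 (SE 0.45). Mertk, a receptor for apoptotic cells, was the sole member with a higher mean, by 0.14 (SE 0.14); with normexp background correction it differed by -0.11. Ptprc, the antigen CD45 of all white cells, read -1.72, -0.87, -0.25 and 0.22 on the untreated arrays and -1.98, -1.12, -2.93 and -2.83 on the ALA arrays. Array ALA 2 lay within the untreated range and the other 3 below it, and the difference was -1.56 (SE 0.80, limma adjusted p 0.80).

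**Figure D2:**
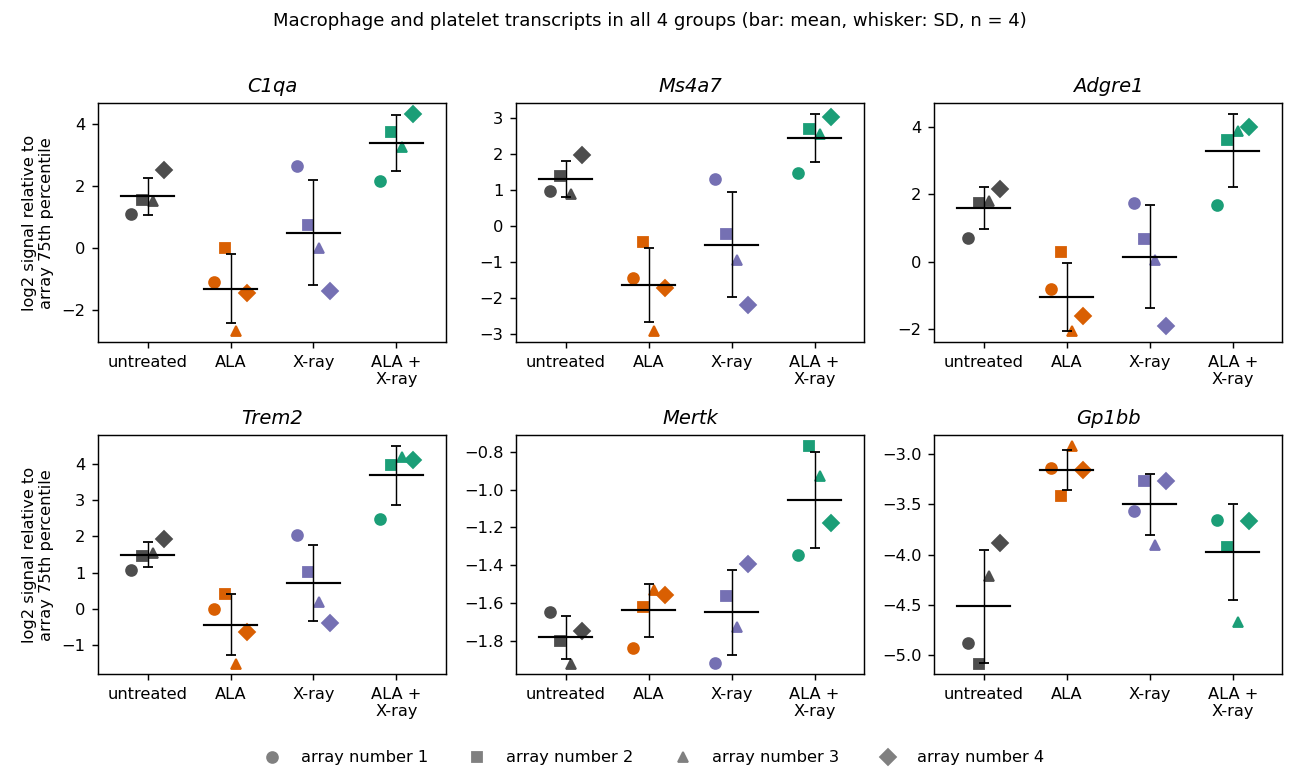
Log2 signal relative to the array's 75th percentile (vertical axes, which differ in range and do not start at 0) for 6 genes on all 16 arrays by group; each point is 1 array, shaped by its array number, with the mean as a bar and the SD as a whisker. C1qa, Ms4a7, Adgre1 and Trem2 are lower in ALA than in untreated tumours without overlap and have their highest mean after ALA plus X-ray, while Mertk overlaps between untreated and ALA and the mean of Gp1bb is lowest in untreated tumours.

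All 11 genes of the list for Fc gamma receptors and their adaptors, which also holds Trem2, had a lower mean. Of these 5 were without overlap (against 2.51% of all genes), and the list's median was -1.31. The median was -0.69 with normexp and -0.82 without untreated 3 and 4. Trem2, a lipid-sensing receptor of macrophages, read 1.07, 1.45, 1.54 and 1.93 on the untreated arrays and -0.01, 0.40, -1.53 and -0.65 on the ALA arrays. The groups stood apart by -1.94 (SE 0.53, limma adjusted p 0.75). Fcrls, an Fc receptor-like protein, differed by -1.90 (SE 0.40; -0.84 with normexp), Tyrobp, the adaptor of Trem2, by -1.61 (SE 0.63), and Fcer1g, the common gamma chain, by -1.31 (SE 0.58).

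Complement, class II and chemokine genes were lower at the median, with wide spread. Of 21 complement genes 15 were lower and the median was -0.71, or -0.13 at the bounds of dim genes and -0.26 without untreated 3 and 4. C1qa, the lowest of the 21 at -2.97, is also counted on the macrophage list. C4b, of the classical pathway, was opposite at 1.14 (SE 0.45). All 9 measured class II presentation genes were lower, with a median of -1.27. It was -0.79 with normexp, -0.73 without untreated 4 and -0.20 without untreated 3 and 4. Ctss, the cathepsin that trims the invariant chain, read 3.69, 4.06, 4.14 and 4.98 on the untreated arrays and 2.79, 2.74, 1.02 and 2.02 on the ALA arrays. It was the 1 member without overlap (difference -2.08, SE 0.67, limma adjusted p 0.75). Cd74, the invariant chain, read -2.06, -0.31, 0.93 and 1.68 on the untreated arrays and -1.47, -0.09, -1.06 and -2.20 on the ALA arrays. The groups overlapped widely, and the difference was -1.27 (SE 1.07, limma adjusted p 0.85), or -0.02 without untreated 3 and 4.

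Of 20 measured cytokine and chemokine genes 15 were lower, with a median of -0.51. It was -0.24 with normexp, and without untreated 3 and 4 it was 0.05, with 11 of 20 higher. Ccl12, a monocyte attractant, differed by -1.81 (SE 0.61), Cxcl16, a chemokine made by macrophages, by -2.02 (SE 0.76), and Ccl8 by -2.48 (SE 1.07). Il1b, the inflammatory cytokine, differed by 0.28 with an SE of 1.16, and its sign changed under normexp and array weights. The interferon list had 13 of 34 higher and a median of -0.08, but it was split between arrays. Within slides 1 to 4 its median difference was 0.60, 0.57, -1.04 and -0.15. Without untreated 3 and 4 the list's median was 0.37, with 31 of 34 higher. Isg20, an antiviral exonuclease, differed by 1.32 (SE 0.49, limma adjusted p 0.76), without overlap, and Ifit1 by 0.34 (SE 0.79).

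Lymphoid transcripts were at the limit of detection. Of 21 T and NK cell genes 11 were tested, with a median of -0.22, or 0.00 at the bounds of dim genes, and 10 fell below the filter or had no named probe, Cd4 and Cd8a among them. Cd3e, a chain of the T cell receptor complex, was well above background on 2 untreated and 3 ALA arrays and differed by 0.65 (SE 0.57). Gzmb, granzyme B, was well above background on 0 of the 8 arrays, so no fold is given. The class I presentation list, which most cells express, had 14 of 16 lower and a median of -0.18. The dendritic cell list had 5 of 8 lower with a median of -0.50, or -0.10 at the bounds; 3 measured genes each stood for B cells and mast cells.

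Markers of muscle stood high on untreated 3 and 4, and those of fat on ALA 2. Of 17 skeletal muscle genes all were lower in ALA, with a median of -2.57, but the list's mean was -3.60, -3.40, 3.33 and 1.55 on the untreated arrays and -3.95 to -2.04 on the ALA arrays. Untreated 3 and 4 stood far above the other 6 arrays. Mb, myoglobin, and Ckm, muscle creatine kinase, were well above background on those 2 arrays alone. Without them the list's median was 0.46, the macrophage median -1.43, and 4 genes passed in limma. The part of muscle in any other difference was not tested.

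Adipocyte genes stood high on 1 array, ALA 2, where the list's mean was 1.37 against -2.64 to -0.52 on the other 7. The median difference of 0.65 became -0.10 without it. Fibroblast and matrix genes were lower in 16 of 18, with a median of -0.72, and 0.15 without untreated arrays 3 and 4. Col1a1, the alpha 1 chain of type I collagen, read 3.27, 4.23, 5.29 and 5.30 on the untreated arrays and 5.34, 4.11, 2.48 and 2.47 on the ALA arrays. The groups overlapped widely. Of 16 endothelial genes 14 were lower, and the median of all 16 was -0.19, or -0.06 with normexp; Kdr, the main Vegfa receptor, differed by -0.52 (SE 0.25), and Pecam1 by -0.06 (SE 0.30), with a sign that changed without untreated 3 and 4. Pericyte (12 genes), keratinocyte (5) and Schwann cell (8) lists had medians of -0.04, 0.13 and -0.07.

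**Figure D3:**
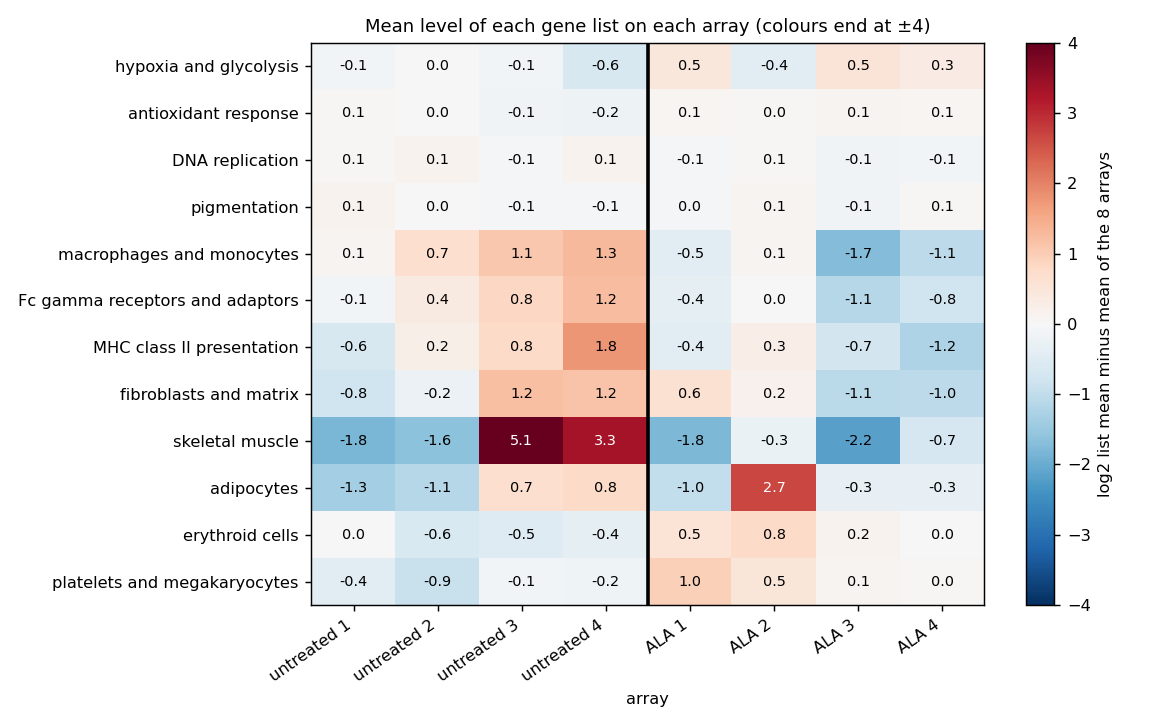
Mean log2 level of 12 gene lists (rows) on the 4 untreated and 4 ALA arrays (columns), each minus the mean of the 8 arrays; red is above that mean and blue below, with the value printed. The macrophage list runs from 0.09 to 1.30 on untreated arrays and from -1.73 to 0.10 on ALA arrays, the muscle list is high on untreated 3 and 4 alone, and the adipocyte list is highest on ALA 2.

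The genes with the smallest p among those without overlap were mixed in function and often dim. On the higher side these were the platelet gene Gp1bb and 11 others, with differences from 0.46 to 1.84 and adjusted p from 0.48 to 0.75. Of the 12, 4 were well above background on all 8 arrays: Ptpn9, a tyrosine phosphatase, Mrap, an accessory protein of melanocortin receptors, Crebzf, a leucine zipper factor, and Traf3ip1, a protein of cilia. Mrap read -0.78, -1.41, -2.47 and -1.88 on the untreated arrays and -0.70, -0.02, -0.20 and -0.59 on the ALA arrays. It was the largest of these 4, at 1.26 (SE 0.31, limma adjusted p 0.65), or 0.77 with normexp. Ptpn9 read -1.40, -1.32, -1.24 and -1.27 on the untreated arrays and -0.71, -0.96, -0.93 and -0.80 on the ALA arrays, a difference of 0.46 (SE 0.11). The other dim ones were Fbxw15 (1.80), Lypd2 (1.36), Igsf21 (1.84), Gspt2 (0.77), a translation termination factor, Tnfsf9 (0.76), a costimulatory ligand of T cells, Drc7 and Cpeb4. Drc7, of the ciliary dynein regulatory complex, and Cpeb4, a regulator of mRNA polyadenylation, were not well above background on any untreated array and were at least 1.13-fold and 1.42-fold higher in ALA, with measured differences of 1.55 and 1.16. With normexp these 7 genes differed by 0.35, 0.39, 0.72, 0.19, 0.27, 0.25 and 0.11, in the same order.

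On the lower side the 12 genes spanned -4.69 to -1.72, and 5 of them, Fcrls, Ms4a7, C1qa, C1qc and Lyz2, are described with the macrophage genes. Tlr7, a sensor of single-stranded RNA in myeloid cells, was well above background on 2 untreated and 0 ALA arrays and was at least 1.24-fold lower in ALA (measured difference -2.30, limma adjusted p 0.48; -0.36 with normexp). Fgf14, an intracellular regulator of sodium channels, and Ppp1r3d, which targets a phosphatase to glycogen, were at least 1.21-fold and 1.46-fold lower. Slc16a10, an aromatic amino acid carrier, was well above background on 2 untreated and 0 ALA arrays, and its bound gives no fold. The remaining 3, Serpina1d, Vtn and Uox, are genes of hepatocytes. Serpina1d, an alpha-1-antitrypsin, read -1.66, 1.83, 0.09 and -2.16 on the untreated arrays and -5.42, -5.37, -4.04 and -5.81 on the ALA arrays. It was well above background on all 4 untreated and 0 ALA arrays, at least 9.58-fold lower in ALA (measured difference -4.69, SE 1.24, limma adjusted p 0.75; -1.83 with normexp).

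Many macrophage, hypoxia and red cell genes had the opposite sign in the comparison of ALA within irradiated tumours. ALA plus X-ray against X-ray alone shares no array with the comparison above; 318 of 15399 genes passed there in limma, 200 higher (1.30%) and 118 lower (0.766%). The difference between the ALA effects with and without X-ray passed for 189 genes, 138 above 0 (0.896%) and 51 below (0.331%). With the slide as a block, which same-numbered arrays share, 8 genes passed. Of the 189, 138 were lower with ALA alone and higher with ALA in irradiated tumours, 49 were the reverse and 2 had the same sign. Across the 15399 genes the 2 effects had a correlation of -0.46, as a description over genes that are not independent and whose arrays share slides. Both counts rest on single arrays: leaving out 1 of the 16 arrays gave 1 to 1065 genes for the difference of effects, with 1 gene without untreated 3, ALA 4 or arrays 2 or 3 of ALA plus X-ray, and leaving out 1 of the 8 irradiated arrays gave 3 to 3135 genes for ALA plus X-ray against X-ray.

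Among macrophage markers, all 19 were higher with ALA in irradiated tumours (median 2.51), where 40.4% of all genes were higher. Of the 19, 8 were called higher, against 1.30% of all genes. In the difference of effects 10 of 19 passed above 0, against 0.896% of all genes, or 0 with the slide as a block. A filter on 4 of the 8 unirradiated arrays kept 15 of the 19, so the others were tested only through irradiated arrays. The difference of effects also reuses the untreated and ALA arrays in which these markers were lower. The count of 10 was 0 to 13 when 1 array was left out; it was 0 without untreated 2, 3 or 4, ALA 4 or any of arrays 2, 3 and 4 of ALA plus X-ray, or X-ray 3. C1qa differed by -2.97 with ALA alone and by 2.88 with ALA in irradiated tumours (difference of effects 5.85, SE 1.05, limma adjusted p 0.027, or 0.058 with the block). Trem2 gave -1.94 and 2.99 (limma adjusted p of the difference 0.027, or 0.051 with the block), and Tlr7 gave -2.30 and 3.23 (limma adjusted p 0.014, or 0.049 with the block). Platelet Gp1bb went the other way, 1.35 and -0.48 (limma adjusted p 0.039, or 0.060 with the block), as did Ndrg1 of the hypoxia list, 0.80 and -1.02 (limma adjusted p 0.029, or 0.060 with the block).

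No red cell or heme gene named here passed in the difference of effects. Hba-a1 was 2.39 with ALA alone and -2.25 with ALA in irradiated tumours, Hbb-bt 2.25 and -1.95, and Alas2 2.32 and -2.97; the difference of effects had limma adjusted p of 0.058, 0.064 and 0.082. Alas1 was -1.15 and 0.48 (limma adjusted p of the difference 0.11), Hmox1 1.16 and -0.22 (0.21), and Tfrc -0.89 and -0.40 (0.66). The hypoxia list had a median of 0.34 with ALA alone and -0.48 in irradiated tumours. There 27 of its 29 genes were lower, where 40.4% of all genes were above 0. In that comparison 2 of the 29 were called lower, against 0.766% of all genes. S100a9 was higher in both settings, 3.03 and 2.25. Replication genes were lower in both, with medians of -0.15 and -0.28, where the medians of all genes were 0.00 and -0.08. No gene of the heme synthesis, antioxidant, p53, replication or mitosis lists passed in the difference of effects.

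**Figure D4:**
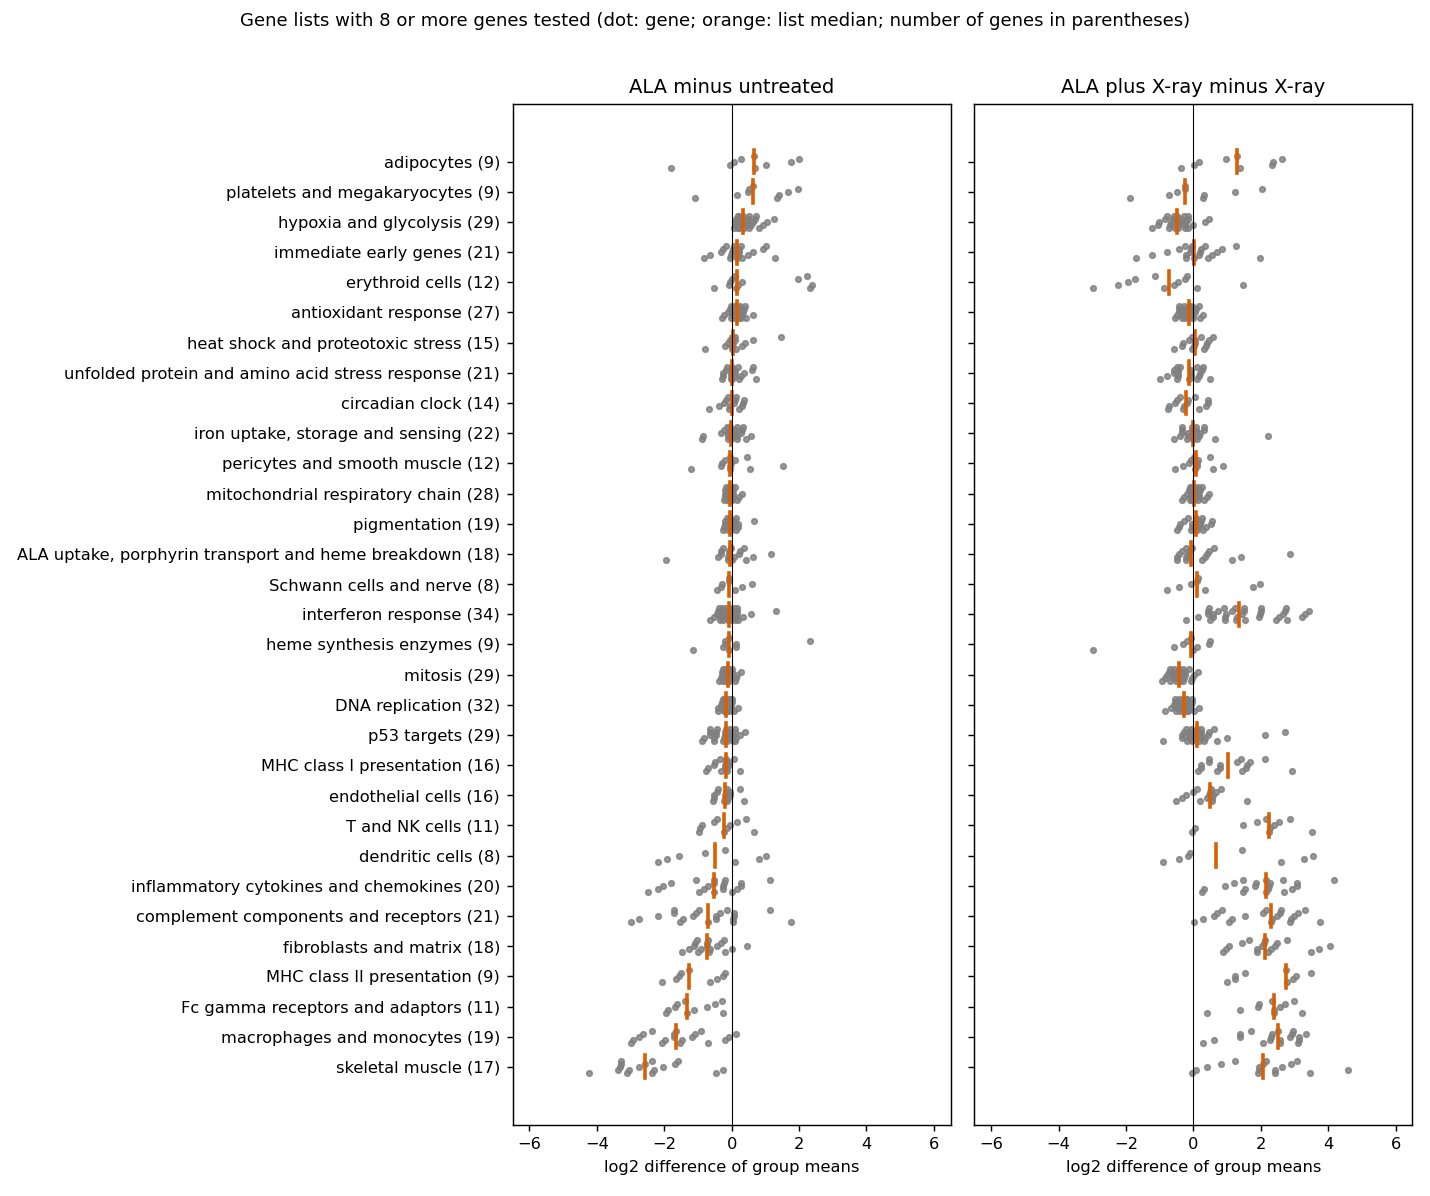
Log2 difference of group means (horizontal axes) for every tested gene of the lists with 8 or more tested genes, for ALA minus untreated (left) and ALA plus X-ray minus X-ray (right); grey dots are genes and orange bars list medians. The macrophage, Fc receptor and class II lists have medians below 0 on the left (-1.66, -1.31 and -1.27) and above 0 on the right (2.51, 2.39 and 2.75), while the median of the heme enzymes is near 0 on both sides.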

How the data were processed

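RNA of 8 tumours, 4 untreated and 4 given ALA, was analysed with the 8 irradiated arrays of the same series. Per the file headers, the deposited scanner files hold linear spot intensity, background-subtracted and detrended within each array by Agilent Feature Extraction 10.7.3.1 (9.5.3.1 in the submitters' processing notes), and quality flags. The authors' deposited value table holds intensity with the same median, 31.9, in every column and was used as an alternative.

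Here log2 processed signals of 43379 non-control spots were reduced by each array's 75th percentile, spots not marked as outliers were averaged per probe, 39 probes without a usable spot were left out, and a probe was kept if 4 or more of the 16 arrays measured it well above background. The brightest probe stood for its gene, leaving 15399 genes. Of 41174 probes, RefSeq (GRCm38.p6) named 26876 from their accession, 2894 from the current symbol and 351 from a former one; the other 11053 have the name in the file. Coordinates of probes come from the files (mm9).

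Limma 3.58.1 in R 4.3.3 fitted 4 group means over 16 arrays, with 12 residual and 2.3 prior degrees of freedom and Benjamini-Hochberg adjustment; the fit was tested on simulated data. Contrasts were the ALA effect without X-ray, the ALA effect under X-ray, and their difference. The 35 gene lists (20 pathways, 15 cell types; 565 of 670 genes tested) are described by counts and medians, without a set test. Named are the 12 genes of smallest p per direction without overlap, leaving out clones, predictions and accession names; up to 4 members of smallest p per list in the direction of its median and the opposite member of smallest p; and preset genes of heme handling, stress, proliferation and cell types whatever their values. Any other gene named was chosen after its values were seen. The members and lists were chosen with earlier results of these data known. Alternatives were background correction, scaling, the authors' table, filters, probe averaging, a fit on 8 arrays, a replicate block, moderation, array weights and each array left out. Deviations of same-numbered ALA and untreated arrays from their group means correlated at 0.20, -0.15, -0.04 and 0.08; their shared number is that of a slide, which the replicate block stands for. Promoter windows are from RefSeq. Some members of the lists are not reported here by name.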

Additional observations from a re-analysis of the deposited data

Results flagged for a closer look

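The difference of the ALA effects with and without X-ray passed for 189 genes in limma. Among the genes named by rule, those above 0 were Ms4a7 (5.90, limma adjusted p 0.027), C1qc (5.85), C1qa (5.85), Adgre1 (5.78), Uox (5.77, limma adjusted p 0.007), Tlr7 (5.53), Ppp1r3d (4.64), Lyz2 (3.99), Vtn (3.48), Slc16a10 (3.46) and Fcrls (3.27). Those below 0 were Cpeb4 (-1.95), Gp1bb (-1.83) and Ptpn9 (-0.97). With the slide as a block Uox and Tlr7 passed (limma adjusted p 0.023 and 0.049), and the other 12 had limma adjusted p from 0.051 to 0.062. These genes were chosen from arrays that enter the same difference, so the values describe them.

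A single array stood far from the other 3 of its group (by Dixon's ratio at the 95% level) in 8 of 178 groups of 4 examined, where chance gives about 1 in 20. Among untreated arrays these were Hba-a1 on untreated 1, at 5.92 against 4.44 to 4.67 on the others; Urod on untreated 1, at 4.11; Uros on untreated 4, at -1.05; Cdkn1a and Vtn on untreated 2, at 2.40 and -1.31; and the mean of the heat shock list on untreated 3, at 3.58 against 3.06 to 3.13. Among ALA arrays, the mean of the unfolded protein list stood at 3.04 on ALA 2 against 3.27 to 3.32, and the mean of the pericyte list at 0.66 on ALA 1 against -0.03 to 0.05.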

How the results depend on the processing

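No gene passed between ALA and untreated tumours under normexp, quantile or median scaling, the authors' table, 3 other filters, averaging over probes, moderation with a trend or the replicate block. In limma 2 genes passed in a fit on the 8 arrays alone, 40 with array weights (the highest weight fell on ALA 4 and the lowest, 0.26, on array 3 of ALA plus X-ray), 0 to 1 with 1 array left out and 4 without untreated 3 and 4 together, an alternative chosen after seeing the data. Genes without overlap numbered 1129 to 2962 with 1 array left out and 3271 without untreated 3 and 4, where fewer arrays have to be separated. ALA plus X-ray against X-ray gave 520 genes with normexp and 3 to 3135 with 1 array left out. The difference of the ALA effects gave 1 to 1065 genes with 1 array left out and 2 without untreated 3 and 4. Same-numbered arrays share a slide; with this replicate block that difference gave 8 genes, and 0 of the macrophage markers.

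The sign turned with normexp for Cpox (0.0161), Il1b (-0.0114), Mki67 (0.0553), Nqo1 (-0.0013), Urod (0.0467) and Mertk (-0.11); for Mki67 also with quantile normalisation (0.0024), the authors' table (0.00027) and averaging over probes (0.0486); and for Il1b with array weights (-0.11). Without untreated 3 and 4 it turned for Abcg2 (0.0868), Fth1 (-0.0251), Gzmb (0.11), Pecam1 (0.20) and Ckm (0.35). With 1 array left out the difference ranged from -0.15 to 0.88 for Ifit1, -0.40 to 0.70 for Il1b, -0.31 to 0.0239 for Tyr, -0.10 to 0.0366 for Mki67, -0.22 to 0.0427 for Pecam1, -0.10 to 3.26 for Cfd, an adipocyte gene, and -0.12 to 0.0042 for Urod. The cause was not tested. The median of 16 of 35 lists changed sign in at least 1 setting. Signal near background limits the dim genes, and 4 arrays a group limit all.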

Other observations

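Transcripts of hepatocytes were lower in the ALA tumours. Serpina1d, Uox and Vtn were named because they were lower without overlap, and the other genes below were chosen after their values were seen. Of 16 genes of plasma proteins and liver enzymes 10 were tested, and 0 passed in limma. All 10 had a lower mean in ALA, 6 of them without overlap. Over all genes 2.51% were lower without overlap, but the choice of the list used these values. The counts therefore describe the list and cannot be compared with that share. Alb, serum albumin, read -2.36, 1.52, -0.21 and -2.72 on the untreated arrays and -5.57, -6.20, -6.39 and -4.86 on the ALA arrays. It was well above background on all 4 untreated and 0 ALA arrays, at least 7.04-fold lower in ALA (measured difference -4.81, SE 1.45, limma adjusted p 0.75). Mup1, a major urinary protein, read -1.05, 2.16, -0.24 and -0.27 on the untreated arrays and -5.59, 0.41, -6.35 and -5.28 on the ALA arrays, and ALA 2 stood within the untreated range.

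The list's mean was highest on untreated 2, at -0.08, and lay between -5.08 and -4.44 on the ALA arrays and between -5.23 and -4.43 on the X-ray arrays. On arrays 1 and 2 of ALA plus X-ray it was -0.70 and -1.41, and on arrays 3 and 4 of that group -4.46 and -3.66. Which tissue or step these transcripts came from was not tested.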
